A study of Mus musculus with 9 samples.

Results

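The ribosomal protein genes described here are those whose symbol, as annotated or as updated, is Rpl or Rps followed by a digit, together with the forms Rplp0 and Rpsa and without the Rps6k kinases. They number 28 of 16637 genes on the array and are read by 42 of 29922 probes. By their symbols, 10 belong to the small subunit (Rps) and 18 to the large subunit (Rpl). Of these, 22 are ribosomal proteins under their standard names. The other 6 also match the symbol rule: Rps19bp1 encodes a protein that binds Rps19 and is no ribosomal protein, Rps4l is classed as a transcribed pseudogene by RefSeq, and Rpl39l, Rpl3l, Rpl7l1 and Rps27l are paralogs of ribosomal protein genes.

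Transcripts of mouse hippocampus were compared on 9 two-colour arrays, 3 for each of 3 comparisons: 3xTG over WT at 12 months, 3xTG over WT at 3 months, and WT at 12 months over WT at 3 months. RNA came from one hippocampus of each of 8 female mice, 2 in each of 4 groups: 3xTG at 12 months, 3xTG at 3 months, WT at 12 months and WT at 3 months. The labels give the 3xTG strain as B6;129Psen1tm1Mpm Tg (APPSwe,tauP201L) 1Lfa, a line with a mutant presenilin allele and transgenes of human mutant APP and tau, and the WT strain as 129SV with C57BL6. As background, the APP and tau transgenes of this line are driven by a Thy1 regulatory element, which is active mainly in neurons. The arrays share mice: the 12-month WT mice serve in the 12-month genotype comparison and in WT ageing, and the 3-month WT mice in the 3-month genotype comparison and in WT ageing. Within each comparison some pairs of arrays share a mouse and others share none. A ratio of hippocampal RNA cannot tell fewer cells of a type from less RNA per cell. Ratios hold no level, so the tissue label could not be checked against marker levels.

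Every value below is a log2 ratio of tested over reference RNA, relative to the median of the listed values of its array, with the probes of a gene averaged. The deposited table lists no ratio between -0.5 and 0.5, and such values cannot be told from spots left out for other reasons. Each array listed 45.7 to 54.1% of all probes, and the ribosomal protein probes had 207 of 378 possible values (54.8%, against 48.6% for all probes). Cy5 marked the test RNA of 3 arrays and Cy3 that of the other 6, with both orientations in each comparison. Genes entered the main fit in limma when listed on at least 2 of 3 arrays in each comparison, which 13 ribosomal protein genes of 3980 genes were, and when their listed arrays allowed the dye term to be estimated. This kept 12 ribosomal protein genes of 3944 genes and left out Rps27, whose 6 listed values all come from arrays with the test RNA in Cy3. A fit without the requirement on missing values held 23 ribosomal protein genes of 10012 genes. None of the 6 genes outside the standard set was among the 12. The 12 are genes with repeatedly larger ratios and do not stand for all 28.

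Cytosolic ribosomes are built from a small subunit, which reads the messenger RNA, and a large subunit, which joins amino acids, each made of ribosomal RNA and a fixed set of proteins. Most ribosomal protein messenger RNAs are abundant and start with a C followed by a run of C and T bases, the terminal oligopyrimidine tract, through which the mTOR pathway and the protein Larp1 adjust their translation. In neurons, part of the pool of these messenger RNAs lies in axons and dendrites.

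The annotated transcription starts show which of the measured genes carry such a tract at the position RefSeq gives. Promoters were found for 24 of the 28 genes (31 promoters, RefSeq, GRCm38.p6). A C at the start followed by at least 4 C or T bases was present in 6 of these 31 promoters (19.4%), against 823 of all 32851 promoters in the table (2.51%). Within 10 bases of the start, the letters CTTTC were searched for on both strands, together with the variant written as CTTCC and the overlapping variant written as TTTCC, all of which can lie inside the tract itself. At least one of them was found in 12 of 31 promoters (38.7%), against 5436 of 32851 (16.5%), or, on the gene's own strand, in 8 (25.8%) against 2778 (8.46%). Below are the 6 genes with the tract, printed 5′ to 3′ from 15 bases before the start to 15 bases from it on, with the run of C and T at the start in capitals.
Rpl14, chr9:120571502-120571531, plus strand: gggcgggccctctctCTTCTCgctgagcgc
Rpl28, chr7:4792950-4792979, plus strand: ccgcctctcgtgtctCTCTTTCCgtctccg
Rpl35, chr2:39005117-39005146, minus strand: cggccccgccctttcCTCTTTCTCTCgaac
Rpl38, chr11:114668565-114668594, plus strand: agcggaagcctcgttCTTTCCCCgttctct
Rps21, chr2:180257364-180257393, plus strand: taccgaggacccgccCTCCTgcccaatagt
Rps27, chr3:90213634-90213663, minus strand: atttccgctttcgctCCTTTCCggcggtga
The next 3 genes carry most of the results that follow and are shown because the annotated start of each lacks a C with such a run. In Rpl27a and Rps9, a run of C and T lies on both sides of the annotated base.
Rpl27a, chr7:109519180-109519209, plus strand: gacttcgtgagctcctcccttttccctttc
Rps9, chr7:3704026-3704055, plus strand: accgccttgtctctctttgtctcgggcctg
Rps3, chr7:99483695-99483724, minus strand: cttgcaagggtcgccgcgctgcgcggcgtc
A missing run says only that these letters are not at this annotated base. Of the 6 genes with the tract, Rpl14 and Rpl35 were among the 12 fitted, and at 12 months Rpl14 lay above 0 on both arrays that listed it (1.97 and 2.48), while Rpl35 was at 0.08 and -1.13.

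At 12 months, most ribosomal protein genes were above the array median in 3xTG hippocampus relative to WT. On arrays 1, 2 and 3 their median was 2.04, 1.93 and 0.53, against 0.20, 0.18 and 0.15 for all listed genes. Above 0 were 19 of 23, 12 of 15 and 10 of 14 listed genes (82.6, 80 and 71.4%, against 54.9, 54.2 and 53.4% of all listed genes). All 3 array medians lay above that of all genes, with array 3, the array with the test RNA in Cy5 and the second 3xTG mouse, nearest to it. Over the 22 standard genes the medians were 2.01, 1.93 and 1.44.

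**Figure D1:**
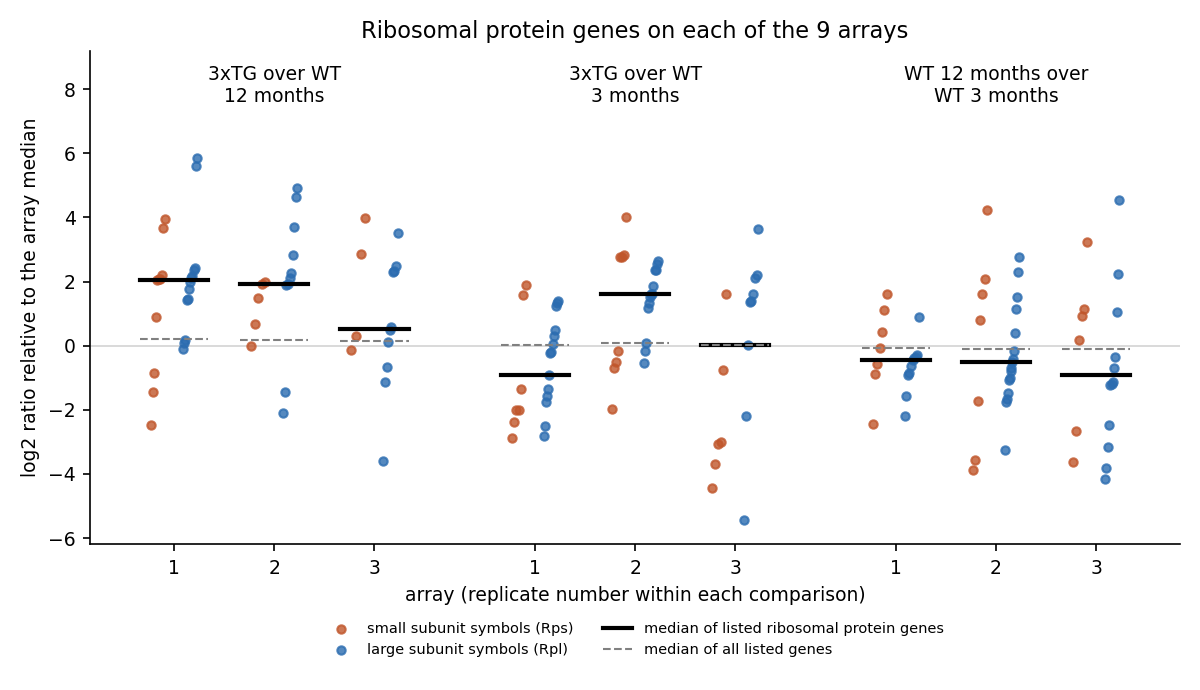
Log2 ratios of the listed ribosomal protein genes on each of the 9 arrays, relative to the array median (each point is a gene, orange for small and blue for large subunit symbols; the solid bar is their median and the dashed bar the median of all listed genes). The 3 arrays of 3xTG over WT at 12 months have medians of 2.04, 1.93 and 0.53, while the 3 arrays of WT ageing lie at -0.46, -0.50 and -0.91.

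At 12 months 6 genes, 2 of the small and 4 of the large subunit, were listed on all 3 arrays. All 6 were above 0 on each of them, where 30.4% of the 3334 genes so listed were. Rpl27a, a large subunit protein, was at 2.36, 2.13 and 2.29. Rps3, a small subunit protein at the entry of the messenger RNA channel that also acts in DNA repair, was at 2.07, 1.97 and 2.85. Rps9, a small subunit protein that binds early in assembly, was at 2.04, 1.49 and 4.00. These 3 genes stood at similar heights on arrays 1 and 2, and Rps3 and Rps9 were higher on array 3. The large subunit genes Rpl23, whose protein is also known to bind Mdm2, and Rpl21 were more scattered. Rpl23 was at 2.18, 3.71 and 2.34, and Rpl21 was at 5.60, 1.89 and 0.58. The probes behind these values change between arrays. For Rpl21, 1 probe gave arrays 1 and 2 and another gave array 3. Rpl23 averaged probes at 2.245 and 2.105 on array 1 and at 1.96 and 5.47 on array 2, and had 1 probe on array 3. Rpl4, the last of the 6 and named after its values were seen, was at 1.44, 1.92 and 0.48 and did not enter the main fit, since a single array listed it at 3 months.

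In the fit, the 12 ribosomal protein genes ran from -2.02 to 3.76, with a median of 2.19, against 0.48 for all 3944 genes tested. Above 0 were 9 of 12 (75%), against 60% of all genes. Rps9 had a fitted log2 ratio of 2.72 ± 0.77 (SE, limma adjusted p = 0.150) and Rps3 of 2.27 ± 0.76 (SE, adjusted p = 0.162). Rpl27a was at 2.26 ± 0.76 (SE, adjusted p = 0.163), Rpl23 at 2.93 ± 1.10 (SE, adjusted p = 0.191) and Rpl21 at 2.12 ± 1.07 (SE, adjusted p = 0.325). None of the 12 passed the adjusted threshold of 0.05, nor did any of the 3944 genes (0%). At an unadjusted p under 0.05, the first 4 of these lay above 0, 4 of 12 (33.3%) against 15.4% of all genes, and 0 lay below 0, against 2.74%. In the fit of 23 genes that allowed missing values, the median of these genes was 1.23, against 0.38 for 10012 genes, 18 were above 0 (78.3% against 57.8%), and the same number, 4, lay above 0 at that threshold (17.4% against 10.7%), with 0 below (against 3.2%).

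**Figure D2:**
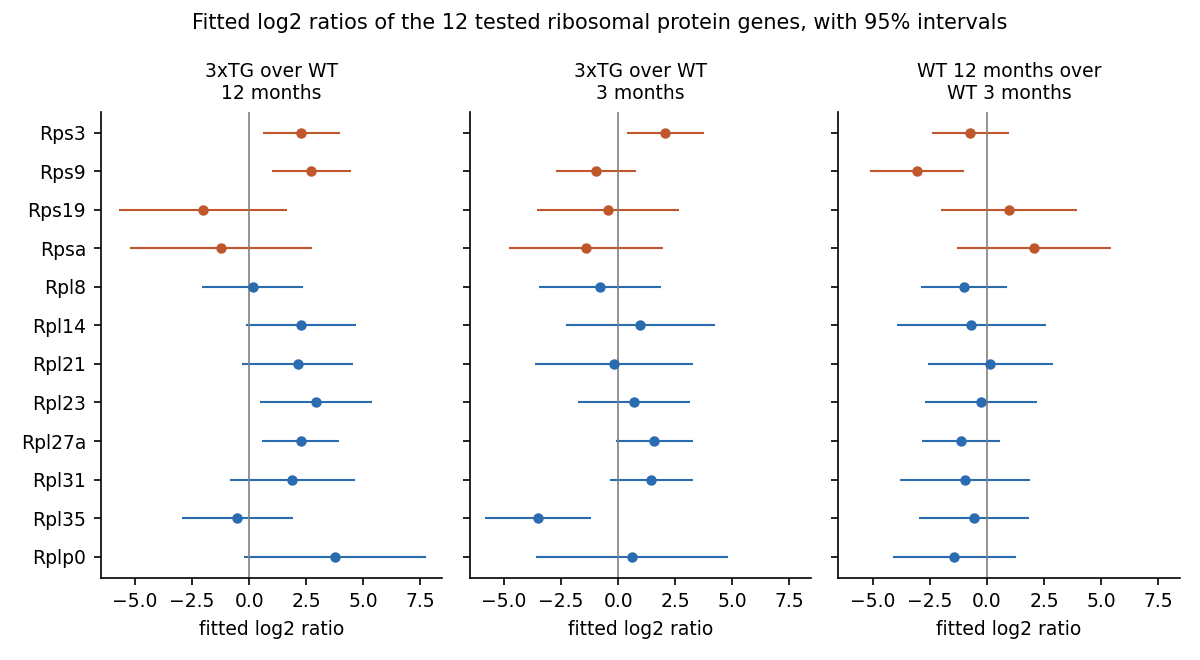
Fitted log2 ratios of the 12 tested ribosomal protein genes in the 3 comparisons, with 95% intervals (orange for small, blue for large subunit). At 12 months 9 of 12 points lie right of 0, in WT ageing 3 of 12, and no gene passed the adjusted threshold in any comparison.

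Members named for their role behaved unevenly at 12 months. Rplp0, the base of the ribosomal stalk that recruits translation factors, was at -0.10 and 4.91 on the 2 arrays that listed it, and its fitted value of 3.76 ± 1.75 (SE, limma adjusted p = 0.295) rests on a wide spread. The value of -0.10 averages probes at 1.54 and -1.74, and that of 4.91 comes from the first of these probes alone. Rpsa, a small subunit protein that also serves as a laminin receptor, was at -2.49 and -0.13, with a fitted value of -1.23 ± 1.77 (SE, adjusted p = 0.773). Rpl38, known for the translation of Hox messenger RNAs in mouse embryos, was listed on 1 array, at 3.50. Of the paralogs, Rps27l was at 2.20 on 1 array, the testis-enriched Rpl39l at 2.83 and -0.67 on 2, the muscle-enriched Rpl3l at 2.11 on 1 and Rpl7l1 at 1.45 and -2.10 on 2. Rps4l was at -1.43 on 1 array, and Rps19bp1 at 3.68 and 0.31. The single-array values of these genes have no replicate.

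The height above 0 depends on how arrays are centred. As deposited, without centring, the fitted median at 12 months was 1.04 for the ribosomal protein genes and -0.69 for all genes. Centring on other abundant transcripts (respiratory complexes, glycolysis and proteasome) gave 0.46 and -1.29. The distance to all genes was 1.71 in the main fit and 1.72 and 1.74 in these settings. Centring shifts all values of an array alike, so this distance could change little. It was 0.85 with missing values allowed, 0.97 with 1 probe per gene and 0.59 with missing values set to a deposited ratio of 0. Over genes listed on all 9 arrays it was 1.61, and without the dye term 1.74. The unadjusted threshold was passed by 606 genes above and 108 below 0 relative to the array median, by 136 and 468 as deposited, and by 53 and 842 relative to the abundant transcripts. As deposited, 0 ribosomal protein genes passed it in either direction. Relative to the abundant transcripts 0 lay above 0 and 1 below, Rps19, at -3.97 ± 1.47 (SE, limma adjusted p = 0.191). Without array 3, 0 of 11 ribosomal protein genes passed the unadjusted threshold, beside 405 of all 3814 genes above 0 and 118 below. Leaving out each of the other 8 arrays of the study gave 4 to 6 of 11 or 12 above 0. In those fits 432 to 652 of all 3794 to 3920 genes lay above 0 at this threshold.

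At 3 months, 3xTG and WT hippocampus did not differ in one direction over the ribosomal protein genes. Their array medians were -0.92, 1.62 and 0.04, and 8 of 21, 15 of 21 and 8 of 15 listed genes were above 0. These shares were 38.1, 71.4 and 53.3%, against 50.4, 52.5 and 50.2% of all listed genes. Arrays 1 and 2 share the WT mouse and the dye, differ in the 3xTG mouse, and lie on opposite sides of 0. In the fit the median was 0.22, against 0.12 for all genes, with 6 of 12 above 0 (50%, against 52.9% of all genes). In the fit that allowed missing values it was 0.60, against 0.02, with 12 of 23 above 0 (52.2%, against 50.5% of all genes). The fitted median of the main fit was -0.70 without array 2 and -0.35 without array 1 of WT ageing, and 1.16 without array 1.

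On all 3 arrays at 3 months 10 genes were listed, of which 5 were above 0 on each (50%, against 28.4% of all genes so listed) and 2 below (20%, against 19.8%). Rps3 was at 1.91, 2.78 and 1.61, with a fitted log2 ratio of 2.07 ± 0.77 (SE, limma adjusted p = 0.221). Rpl27a was at 0.30, 2.36 and 2.12 and fitted at 1.58 ± 0.76 (SE, adjusted p = 0.330). Rpl31, another large subunit protein, was at 1.33, 1.86 and 1.35 and fitted at 1.46 ± 0.80 (SE, adjusted p = 0.398). Rps3 and Rpl31 were above 1 on all 3 arrays, and Rpl27a was nearly level with the array median on the first. The other 2 of the 5, Rpl22 and the paralog Rpl7l1, did not enter the main fit. Rpl22, a large subunit protein with a role in T cell development, was named after its values were seen, at 1.23, 2.36 and 1.40.

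Rps9 was below 0 on all 3 arrays at 3 months, at -2.02, -0.70 and -0.75, and fitted at -0.97 ± 0.78 (SE, limma adjusted p = 0.550). The other gene below 0 on each array was Rps21, a small subunit protein named after its values were seen, at -2.40, -0.52 and -3.08. Rpl35, singled out after its values were seen, had the lowest fitted value, -3.51 ± 0.99 (SE, adjusted p = 0.183), from arrays at -1.58 and -5.44. Rplp0 was at -1.36 and -0.17, each from a different probe, with a fitted value of 0.60 ± 1.84 (SE, adjusted p = 0.905), a sign opposite to both of its arrays. Without the dye term its value was -0.85, and with arrays taken as independent 0.43. Rpsa was at -2.01, 4.01 and -4.44, a spread wider than its fitted value of -1.42 ± 1.502 (SE, adjusted p = 0.660).

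No gene of the 12, and none of all 3944 genes (0%), passed the adjusted threshold at 3 months. At an unadjusted p under 0.05, Rps3 lay above 0 (8.33%, against 10.5% of all genes) and Rpl35 below (8.33%, against 6.29%), shares close to those of all genes. With missing values allowed, Rps3 lay above 0 (4.35%, against 6.77%), and Rpl35 and Rps4l below (8.7%, against 5.29%). The whole array had 415 genes above and 248 below 0 at this threshold, or 509 and 150 as deposited and 204 and 560 relative to the abundant transcripts. The remaining paralogs were at 1.62 and 0.04 (Rpl3l), 1.59 and 2.84 (Rps27l), -2.19 on 1 array (Rpl39l) and 0.50, 1.52 and 3.65 (Rpl7l1), and Rps4l at -2.88 and -3.02. Rpl38 was at -2.82, 2.55 and 2.21.

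In WT hippocampus at 12 months relative to 3 months, the ribosomal protein genes lay slightly below the array median. Their medians were -0.46, -0.50 and -0.91 on arrays 1, 2 and 3, against -0.06, -0.10 and -0.10 for all listed genes. Above 0 were 4 of 17, 9 of 23 and 7 of 18 listed genes (23.5, 39.1 and 38.9%, against 48.2, 47.5 and 47.7% of all listed genes). All 3 medians were on the same side of 0, at a distance from all genes of 0.40, 0.40 and 0.81.

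On all 3 arrays of WT ageing 7 genes were listed. None of the 7 was above 0 on each, against 15.6% of the genes so listed, and 4 were below 0 on each (57.1%, against 23.3%). Rpl27a was at -1.57, -1.06 and -0.69, with a fitted log2 ratio of -1.14 ± 0.76 (SE, limma adjusted p = 0.608). Rpl8, a large subunit protein close to the catalytic centre, was at -0.91, -1.01 and -1.13 and fitted at -1.001 ± 0.82 (SE, adjusted p = 0.709). Rplp0 was at -0.40, -1.75 and -3.82 and fitted at -1.43 ± 1.17 (SE, adjusted p = 0.710). Rpl8 had a spread of 0.11 (SD, n = 3 arrays), while the 3 values of Rplp0 spread over 1.72 (SD). Rpl4 was the fourth of these genes, at -0.37, -0.16 and -0.34. For Rplp0 and Rpl4 the sign on some arrays comes from averaging probes on opposite sides of 0. The 2 probes of Rplp0 were at 1.17 and -1.97 on array 1. Those of Rpl4 were at 0.09 and -0.41 on array 2 and at 0.08 and -0.76 on array 3.

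The fitted median of the 12 genes in WT ageing was -0.71, against -0.15 for all genes, with 3 of 12 above 0 (25%, against 46.3% of all genes). Without the requirement on missing values it was -0.37, against -0.13, with 10 of 23 above 0 (43.5%, against 47%). None of the 12 and none of all genes (0%) passed the adjusted threshold. At an unadjusted p under 0.05, 0 lay above 0 (against 3.32% of all genes) and 1 below (8.33%, against 10.8%). That gene was Rps9, named here after its values were seen, at -2.44 and -3.62 on the 2 arrays that listed it and fitted at -3.09 ± 0.92 (SE, limma adjusted p = 0.170). Rpsa went the other way, at -0.07, 4.22 and 3.25, with a fitted value of 2.05 ± 1.502 (SE, adjusted p = 0.660). Without the requirement on missing values the counts were again 0 above (against 2.6%) and 1 below, Rps9 (4.35%, against 8.23%). At this threshold 131 of all genes lay above and 425 below 0, or 1039 and 49 as deposited and 305 and 250 relative to the abundant transcripts. The fitted median of the ribosomal protein genes was 1.12 as deposited and 0.01 relative to the abundant transcripts, so the values of this comparison hold only relative to the array median.

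Among the genes that did not enter the main fit, Rps27 was at -3.89 and -2.66 in WT ageing, and Rps21 at -3.58 on 1 array. Rps27l, the paralog of Rps27, was at 1.62 and 1.63. Rpl38 was at -0.63 and -4.17, Rpl3l at 1.52 and 4.54, Rpl39l at -0.28 and 2.76, Rps4l at -0.89 and 2.07, Rpl7l1 at -1.46 on 1 array and Rps19bp1 at 1.13 on 1 array. Oligonucleotide probes can cross-hybridise between near-identical copies and with the many processed pseudogenes of these genes, so paralog values are uncertain.

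The change of the genotype effect with age was tested by subtracting the 3-month from the 12-month coefficient. Its fitted median over the 12 ribosomal protein genes was 1.12, against 0.40 for all genes, and 11 of 12 genes were above 0 (91.7%, against 59.2%). That median was 0.27 without array 1 at 3 months and 2.40 without array 2 at 3 months. None of the 12 and none of 3944 genes (0%) passed the adjusted threshold, and at an unadjusted p under 0.05, 1 lay above 0 (8.33%, against 6.90%) and 0 below (against 2.54%). That gene, Rps9, had a difference of 3.69 ± 1.08 (SE, 95% interval 1.27 to 6.12, limma adjusted p = 0.474) and is named here after its values were seen. Without the requirement on missing values, 19 of 23 genes were above 0 (82.6%, against 58% of all genes), with a median of 1.15 against 0.43. Rps9 was again the one gene above 0 at an unadjusted p under 0.05 (4.35%, against 4.85%), with 0 below (against 2.31%).

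The Rps9 values do not come from the same probes in each comparison. At 12 months a single probe listed it, at 2.04, 1.49 and 4.00. That probe was at -1.85, -0.12 and 0.53 at 3 months, where a second probe was at -2.18, -1.29 and -2.03. Fitted on the first probe alone, a setting added after the data were seen, the 3-month value was -0.21 ± 0.77 (SE, limma adjusted p = 0.933) and the difference between the ages 3.02 ± 1.06 (SE, adjusted p = 0.625). The 12-month value on this probe was 2.81 ± 0.77 (SE, adjusted p = 0.265), close to that of the average.

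Rps3 and Rpl27a could be followed by both of their probes. The first Rps3 probe was at 2.01 and 1.84 on arrays 1 and 2 at 12 months, and the second at 2.13, 2.11 and 2.85. At 3 months the same 2 probes were at 0.67, 1.59 and 0.19 and at 3.15, 3.96 and 3.03, so both were above 0 while their heights differed. Rpl27a had the only one of the 42 probes that was listed on all 9 arrays, and its 2 probes had the same sign in 6 of 6 pairs, with a median absolute difference of 0.47. The 2 Rpsa probes differed by a median of 3.82. Over the 10 ribosomal protein genes with 2 or more probes listed together, 28 of 42 pairs had the same sign (66.7%) and the median absolute difference was 1.46. For all 3314 such genes, 52.9% of 11772 pairs had the same sign and the median absolute difference was 1.92.

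**Figure D3:**
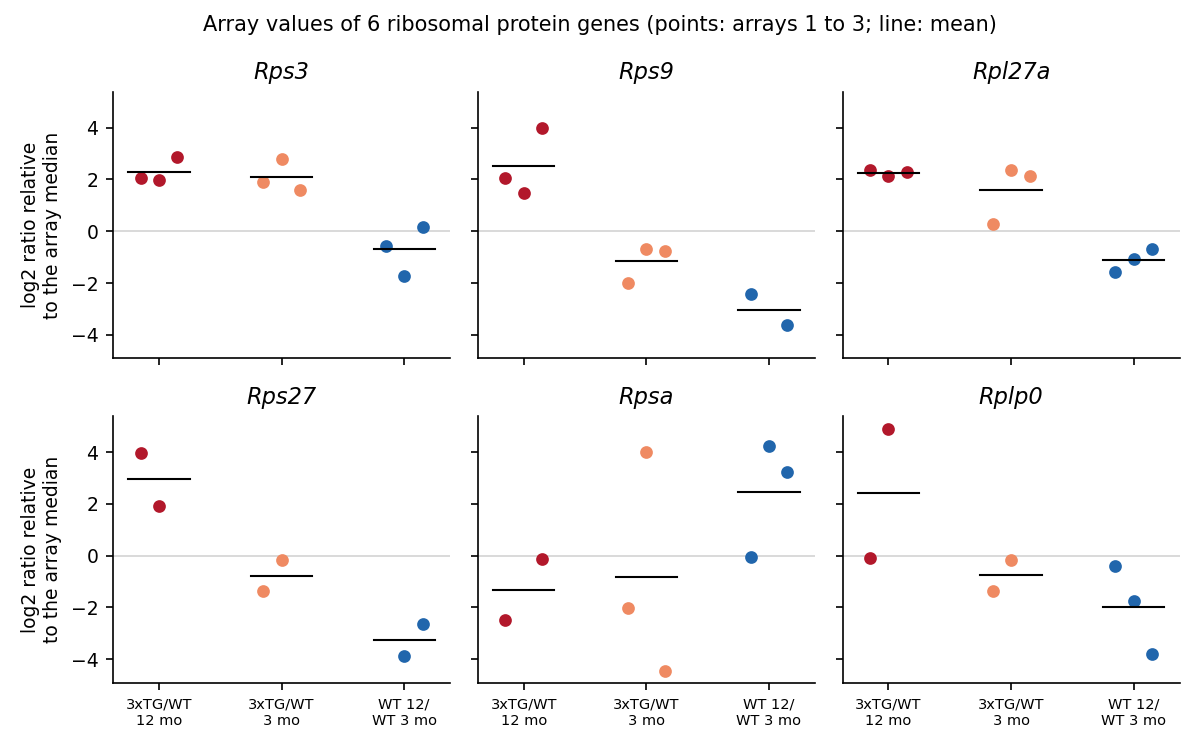
Array values of Rps3, Rps9, Rpl27a, Rps27, Rpsa and Rplp0, as log2 ratios relative to the array median (points are arrays 1 to 3 from left to right within each comparison, lines their mean). Rpl27a and Rps3 lie above 0 on all 6 genotype arrays, Rps9 lies above 0 at 12 months and below 0 elsewhere, and Rpsa scatters from -4.44 to 4.22.

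Small and large subunit genes did not separate in the same way on all arrays. At 12 months the small subunit genes had medians of 2.06, 1.49 and 1.58 on arrays 1, 2 and 3, and the large subunit genes 1.97, 2.20 and 0.53, giving differences of 0.08, -0.71 and 1.05. The difference changed sign between arrays of the same comparison. At 3 months the small subunit genes had medians of -2.01, 1.30 and -3.05, and the large subunit genes -0.21, 1.62 and 1.40. The small subunit was thus lower on all 3 arrays, with differences of -1.81, -0.32 and -4.45, on 6 to 8 listed small subunit genes. In WT ageing the small subunit genes had medians of -0.07, 0.80 and 0.56, and the large subunit genes -0.55, -0.59 and -1.17. The small subunit was higher on all 3 arrays, by 0.48, 1.39 and 1.72.

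Over the 22 standard genes, the small minus large difference in WT ageing was 0.56, -1.03 and 1.39, so the single sign of that comparison depends on the paralogs and the pseudogene. At 3 months it was -1.80, -1.79 and -4.58 without them. The fit gave small minus large differences of -1.66 at 12 months (0.52 for 4 small against 2.19 for 8 large subunit genes), -1.36 at 3 months (-0.71 against 0.64) and 0.94 in WT ageing (0.12 against -0.83). They were -1.004, -2.02 and 1.197 with missing values allowed, over 8 small and 15 large subunit genes. With 4 small subunit genes in the fit, Rps3 and Rps9 on one side at 12 months and Rps19 and Rpsa on the other, these medians rest on the 2 middle genes. Each fitted difference changed sign when 1 array was left out: it was 0.26 at 12 months without array 1, 1.53 at 3 months without array 3, and -0.91 in WT ageing without array 1. Centring leaves the differences on single arrays as they are, while the fitted differences were -1.72, -0.91 and 0.91 as deposited and -1.62, -1.43 and 0.71 relative to the abundant transcripts, in the same order of comparisons.

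Cytosolic translation factors and genes of ribosome assembly had fitted medians on the same side of 0 as the ribosomal protein genes at 12 months and in WT ageing. The median of all 3944 genes lay on that side as well, at 0.48 and -0.15. Of all genes, 60% were above 0 at 12 months, 52.9% at 3 months and 46.3% in WT ageing. Of the cytosolic translation factors, 20 of 62 were tested, with a fitted median of 0.97 at 12 months (14 above 0), 0.63 at 3 months (13 above 0) and -1.21 in WT ageing (6 above 0). At an unadjusted p under 0.05, 1 lay above and 0 below 0 at 12 months, 2 and 2 at 3 months, and 1 and 4 in WT ageing. Over all genes the shares at this threshold were 15.4% above and 2.74% below 0 at 12 months. They were 10.5% and 6.29% at 3 months, and 3.32% and 10.8% in WT ageing. The same shares of all genes stand beside the lists that follow. Eef2, the factor that moves the ribosome along the messenger RNA, was at 2.96 ± 0.77 at 3 months (SE, limma adjusted p = 0.135). Eif3f, a subunit of the initiation factor that binds the small subunit, was at -4.48 ± 0.76 in WT ageing (SE, adjusted p = 0.0971). No gene of this or the following lists passed the adjusted threshold.

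Genes of ribosome assembly and ribosomal RNA synthesis had 20 of 72 tested, with fitted medians of 0.90 at 12 months, -0.41 at 3 months and -0.74 in WT ageing, and 14, 10 and 6 above 0. Their array medians in WT ageing lay on both sides of 0, at 0.24, -0.26 and -0.06. At an unadjusted p under 0.05, 2 lay above and 0 below 0 at 12 months, 2 and 3 at 3 months, and 1 and 3 in WT ageing. Rrp9, a protein of the box C/D particle that guides processing of ribosomal RNA, was at 4.33 ± 1.30 at 12 months (SE, limma adjusted p = 0.162). Of the mTOR and S6 kinase genes, 4 of 21 were tested, with medians of -0.16 at 12 months, -0.27 at 3 months and 0.22 in WT ageing. Among them Rps6kb1, the S6 kinase, was at -4.12 ± 1.58 at 12 months (SE, adjusted p = 0.228), and Larp1 at 0.91 ± 1.12 (SE, adjusted p = 0.718). Serbp1, which binds idle ribosomes, was the one gene of the ribosome-bound list on the array. It was above 0 in all 3 comparisons, at 2.41 ± 0.74 at 12 months (SE, adjusted p = 0.154), 2.92 ± 0.74 at 3 months (SE, adjusted p = 0.132) and 2.06 ± 0.75 in WT ageing (SE, adjusted p = 0.244).

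Proteins of the mitochondrial ribosome, which are encoded by other genes, had 16 of 73 tested and fitted medians of 1.25 at 12 months, -0.28 at 3 months and -0.58 in WT ageing, with 13, 7 and 6 above 0. At an unadjusted p under 0.05, 3 lay above and 0 below 0 at 12 months, 2 and 1 at 3 months, and 0 and 5 in WT ageing. Complex I of the respiratory chain, a list of abundant transcripts with no ribosomal protein in it, had 14 of 40 tested and medians of 2.18, 0.77 and -0.45, with 13, 9 and 4 above 0. Its 12-month median was as high as that of the ribosomal protein genes, at 2.19. At the unadjusted threshold, 5 of its 14 tested genes lay above and 0 below 0 at 12 months. These counts were 1 and 0 at 3 months, and 0 and 2 in WT ageing. The tested genes of complexes II to V, glycolysis and the proteasome had 12-month medians of 1.51, 1.62 and 1.47, 3-month medians of 0.73, 0.62 and 0.56, and WT ageing medians of -0.42, -0.26 and -0.14. Families not expected in hippocampus (receptors for smell, pheromones and taste, and proteins of hair keratin) lay on the other side, with array medians from -0.61 to -0.38 at 12 months and from -1.37 to -0.30 at 3 months, and from 0.18 to 0.51 in WT ageing. Their part in the result was not tested.

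**Figure D4:**
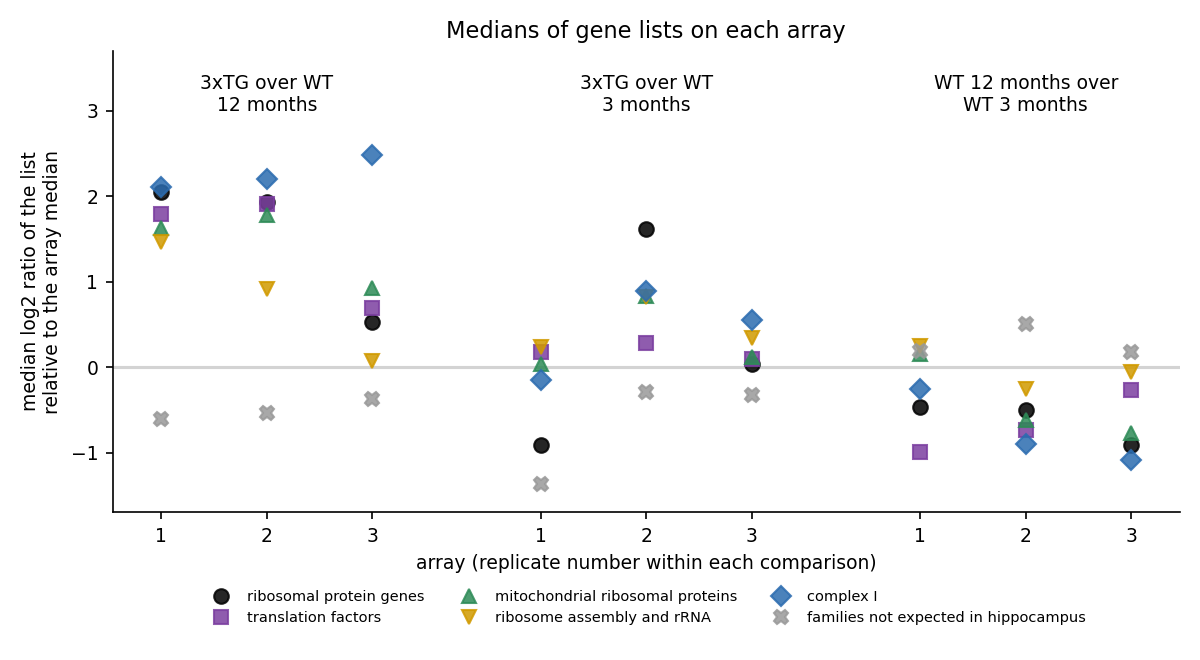
Median log2 ratio of 6 gene lists on each array, relative to the array median (replicate number on the horizontal axis within each comparison, 1 symbol per list). At 12 months the families not expected in hippocampus lie below 0 on all 3 arrays, and every other list lies above 0 on all 3.

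Cell type markers were read from their listed genes on each array. The pyramidal cell markers, 4 to 7 of 9 listed, had medians from 2.39 to 3.40 at 12 months, from 0.76 to 1.45 at 3 months and from -1.34 to 0.87 in WT ageing. Oligodendrocyte markers, 2 to 5 of 6 listed, ran from 0.28 to 1.22, from -0.14 to 2.52 and from -1.56 to -0.98. Granule cell markers ran from -0.81 to -0.43 at 12 months, from -1.50 to 0.76 at 3 months and from -0.60 to 0.56 in WT ageing. At 12 months interneuron markers ran from 0.97 to 1.61, astrocyte markers from -0.43 to 2.47, microglia markers from -0.58 to 0.52, endothelial markers from -1.10 to 0.84 and choroid plexus markers from -1.87 to 2.47. Interneuron markers, 1 to 5 of 7 listed, ran from -2.62 to 0.14 at 3 months and from -2.995 to 0.02 in WT ageing. By array medians, pyramidal cell and interneuron markers were thus highest at 12 months among the 3 comparisons. Astrocyte markers ran from -1.11 to 1.01 at 3 months and from -0.99 to -0.05 in WT ageing. Fitted medians at 12 months, 3 months and in WT ageing were 1.48, -0.86 and -1.35 for 2 tested astrocyte markers. For 2 tested oligodendrocyte markers they were 1.40, 0.60 and -1.81. Fitted medians of these 2 lists, pyramidal cell markers, the ribosomal protein genes, complex I and all genes were highest at 12 months. Those of granule cell, microglia, endothelial and choroid plexus markers were not. The part of these markers in the result was not tested.

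The labels give each array a number, without saying what it stands for. It runs from 57 to 66 on the first array of each genotype comparison and all 3 of WT ageing, and from 86 to 91 on the others. The number 65 appears on both array 3 of WT ageing and array 1 at 3 months. The ribosomal protein medians were 2.04 on the low-numbered array and 1.93 and 0.53 on the high-numbered arrays at 12 months, and -0.92 against 1.62 and 0.04 at 3 months. The WT ageing arrays all have low numbers, so number and comparison cannot be told apart there.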

How the data were processed

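Hippocampal RNA of 8 mice was hybridised on 9 two-colour arrays. The deposited table holds log2 ratios that the authors computed, as judged from the values; for the scanner, background correction and normalization the sources used here give nothing. The log base and the direction (test over reference) were taken from values and labels: arrays of a comparison with opposite dyes correlated at 0.20 to 0.31. Deposited array medians ran from -1.71 to 2.34, so each array was centred on its median. Ratios read as Cy5 over Cy3 would make these correlations negative. Which of the 2 RNAs is the numerator rests on the labels alone.

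Probes with 1 symbol (21020, none for 8902) were averaged per gene, with symbols updated through RefSeq (GRCm38.p6). Fits used limma 3.58.1 in R 4.3.3, by generalised least squares over all 9 arrays with 3 comparison terms, a dye term and a covariance from shared mice (variance ratio 0.115, restricted maximum likelihood on 516 complete genes), with Benjamini-Hochberg adjustment over all genes tested and a threshold of 0.05. The script was tested on simulated data. Arrays are partly technical replicates, so p-values measure the spread between these arrays and few mice, and their number limits the precision. Deviations of arrays with the same replicate number correlated at -0.06 to 0.17 and of arrays with different numbers at -0.17 to 0.14. These ranges overlap and the highest value is a pair with the same number, so they cannot decide whether the numbers pair arrays. The main fit used no pairing by number.

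Genes named are tested members with one sign on all 3 arrays of a comparison, and members fixed by role, of which Rplp1, Rplp2, Rps6, Rpl10, Rpl10a, Rpl24, Rps25, Rpl22l1 and Rpl36al were not analysed here. Rps9 in WT ageing and in the difference between ages, Rps19 relative to the abundant transcripts, and Rpl4, Rpl14, Rpl22, Rpl35, Rps21 and Rps27 were named after their values were seen. The members, lists and tests were chosen with earlier results of these data known. Alternatives covered centring, missing values, probe choice, symbols, dye, direction, covariance, a replicate block and each array left out.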

Additional observations from a re-analysis of the deposited data

Results flagged for a closer look

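Among 15 ribosomal protein genes with at least 2 arrays at each age, the arrays of Rps27 and Rps9 were all above 0 for 3xTG over WT at 12 months and all below 0 at 3 months. How many of all genes do so was not counted, so 2 of 15 cannot be called unusual. Of all genes listed on all 3 arrays, 30.4% were above 0 on each at 12 months and 19.8% below 0 on each at 3 months. Rps27, a small subunit protein, was at 3.96 and 1.93 at 12 months and at -1.36 and -0.17 at 3 months, which puts the means 3.71 apart on the log2 scale. Its single probe was listed on 2 arrays in each comparison, all 6 with the test RNA in Cy3, so the dye term could not be estimated and Rps27 is in no fit that has it. Without the dye term, the difference between the ages was 3.71 ± 1.42 (SE, limma adjusted p = 0.433 over 3980 genes), with 2.95 ± 1.00 at 12 months (SE, adjusted p = 0.154) and -0.77 ± 1.00 at 3 months (SE, adjusted p = 0.726). As deposited, without centring, its means were 2.07 at 12 months and -0.77 at 3 months, with 2 and 0 arrays above 0.

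Rps9 had means of 2.51 at 12 months and -1.16 at 3 months, a difference of 3.67 between the arrays. The difference between the ages did not pass in limma (adjusted p = 0.474, and 0.316 to 1.00 over the alternatives). As deposited, without centring, the means were 1.36 and -0.83, with 3 and 1 arrays above 0. The single probe behind the 12-month values was above 0 on 1 of the 3 arrays at 3 months.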

How the results depend on the processing

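None of the ribosomal protein genes was called in any of the 21 alternatives for any of the 4 contrasts. Of 147 medians and subunit differences, 118 moved by less than the spread between arrays, and of 397 single-gene values 24 changed sign. Without centring, the median was 1.12 in WT ageing and 1.04 at 12 months, and Rpl27a (0.72), Rpl8 (0.78) and Rplp0 (0.40) turned in WT ageing. With centring on other abundant transcripts the medians were 0.0054 and 0.46, and Rplp0 at 3 months was -0.39. With missing values allowed they were -0.37 and 1.23. With genes listed on all 9 arrays, of which 3 are ribosomal protein genes, the 3-month median was 1.58, and small minus large was -0.024 in WT ageing, 0.94 at 3 months and -0.32 at 12 months. With missing values at 0, the WT ageing median was -1.08, against -1.12 for all genes, so the distance of -0.56 in the main fit was lost (0.05). The 12-month median was 1.46 in that setting, against 0.87 for all genes. Small minus large was then 0.12 in WT ageing and 0.0058 at 12 months, and Rplp0 at 3 months was -0.48. With 1 probe per gene, WT ageing gave a median of -0.997 and a subunit difference of 1.97. Without the dye term, small minus large was 0.17 in WT ageing and 0.037 at 12 months, and Rplp0 at 3 months was -0.85. Reading the ratios as Cy5 over Cy3 turns the positive correlations between opposite-dye arrays of a comparison negative. The medians were then 0.23 in WT ageing, -0.16 at 12 months and -0.48 for the difference between ages, and small minus large was 0.041 in WT ageing and 0.95 at 12 months. Under that reading WT ageing turned for Rpl27a (0.23), Rpl8 (0.23), Rplp0 (0.97), Rps9 (0.38) and Rpsa (-2.49). The 3-month values turned for Rpl31 (-0.10), Rplp0 (-1.05), Rps3 (-0.48) and Rps9 (0.66), and the 12-month values for Rpl21 (-1.64), Rpl23 (-0.96), Rpl27a (-0.33), Rplp0 (-4.22) and Rpsa (0.97). The Rps9 difference between ages became -0.51. The replicate block gave a WT ageing median of -0.98 and a subunit difference of -0.12, and called no ribosomal protein gene either. Leaving out 1 array at a time gave medians of 1.89 to 2.23 at 12 months, -0.70 to 1.16 at 3 months, -0.99 to -0.62 in WT ageing and 0.27 to 2.40 for the difference between ages. It gave subunit differences of -2.31 to 0.26, -2.33 to 1.53 and -0.91 to 1.75 in the same order of comparisons. Rplp0 at 3 months ran from -0.0078 to 1.22, Rpsa from -3.23 to 0.44 at 3 months and from -4.83 to 2.28 at 12 months. Without the 6 paralogs and others, applied without the requirement on missing values, the medians were 2.00, 0.22 and -0.71. Over all genes, calls at the adjusted threshold numbered 0 in the main setting, against 35 in WT ageing and 23 at 3 months with arrays taken as independent, 47 and 11 without the dye term, 248 and 6 with missing values at 0, and 17, 27 and, at 12 months, 20 over genes listed on all arrays. The causes were not tested. Small ratios are missing from the table, and signal over background is unknown.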
